A study of Rattus norvegicus with 13 samples.

Results

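The p53 and DNA damage response genes on this array were Atm, Chek1, Chek2, Rpa3, Mdm2, Gadd45a, Cidea and Cideb. These 8 of the 96 gene probes carry those symbols in the platform annotation, and Trp53 itself was not analysed here. The RNA was total RNA of septal coronary arteries, small vessels of the heart, and the animals were F344 rats, an inbred strain much used in research on ageing. The 13 arrays fall into an aged group of 26 months (n = 6) and a young group of 3 months (n = 7), and the labels give no treatment or genotype for either. For the aged arrays they add that endothelial apoptosis was raised, as seen by TUNEL staining and by fragmented DNA. They do not say whether each array is a separate animal, so p-values measure the spread between arrays, which may be partly technical.

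The kinase Atm senses double-strand breaks in DNA and phosphorylates the checkpoint kinase Chek2, while its relative Atr acts mainly through Chek1 on single-stranded DNA coated by replication protein A, of which Rpa3 is the small subunit. These kinases stabilise p53, a transcription factor that arrests the cell cycle or drives apoptosis. Mdm2 is both a p53 target and the ubiquitin ligase that returns p53 to a low level, and Gadd45a is a stress-induced effector of growth arrest and repair. Cidea and Cideb share a domain with the DNA fragmentation factors and are better known for their work on lipid droplets.

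Gadd45a is the member on which most of the values below rest, so the 250 bases before its RefSeq start site in the rat genome are shown as background to its regulation. They lie at chr4:97486800-97487049 (GRCr8, minus strand) and were found by the gene's symbol, as for 6 of the 8 members. Capitals mark, in order, a GC box (GGGCGG), an octamer (ATGCAAAT) and a CCAAT box (CCAAT), each searched on both strands together with TATAAA.

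Gadd45a: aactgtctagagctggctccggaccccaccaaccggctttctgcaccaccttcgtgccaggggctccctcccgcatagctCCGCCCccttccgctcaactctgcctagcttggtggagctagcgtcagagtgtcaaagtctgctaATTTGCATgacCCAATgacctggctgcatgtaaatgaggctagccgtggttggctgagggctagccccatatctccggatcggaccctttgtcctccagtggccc

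The octamer spans positions -105 to -98 and the CCAAT box -94 to -90 from the start. Of 33469 rat promoter windows of this length, 1.56% hold the octamer, 34.0% a CCAAT box, 30.5% a GC box and 12.9% TATAAA, which this window lacks. The other members with an entry (Atm, Mdm2, Chek1, Cidea and Cideb) have no octamer in this window. These are matches of letters and not measured binding sites.

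The deposited values, given to 2 decimals with 0.01 the smallest, behave as ratios to beta-actin within each array, whose 2 spots average 1 on all 13 arrays. Arrays held values for 52 to 80 of the 96 gene probes. The other reference genes, Gapdh and Rpl13a, ran from 0.6 to 0.8 and 0.19 to 0.29 on the aged arrays and from 0.48 to 0.9 and 0.09 to 0.3 on the young ones. Of 19 markers of endothelium, smooth muscle, fibroblasts, cardiomyocytes and leukocytes, 0 carry a listed symbol on the array, so the labelled tissue could not be checked.

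Most damage response genes were near the bottom of the range and often blank. Across the 8 members 62 of 104 cells held a value (59.6%), against 65.9% of all gene probe cells, and an array gave a value for 3 to 6 members. Gadd45a was the 1 member measured on all 13 arrays, as were 15.6% of gene probes. The meaning of a blank is not stated in the labels.

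**Figure D1:**
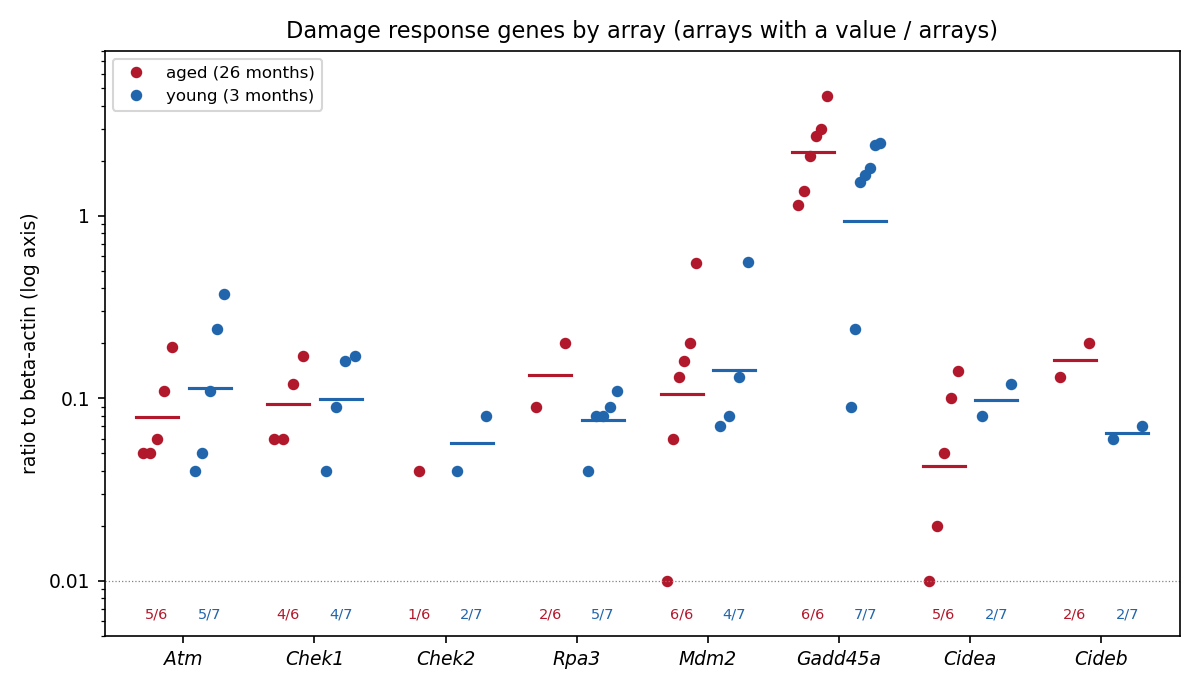
Ratio to beta-actin (log axis) of each of the 8 members on every array with a value, aged arrays in red and young in blue, with bars at the geometric mean where there are at least 2 values and the number of arrays with a value written below. Gadd45a lies above 1 on 11 of 13 arrays, and no other member exceeds 0.56 on any array.

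Gadd45a, the growth arrest effector, had a lowest ratio of 1.14, a median of 2.43 and a highest of 4.51 on the 6 aged arrays. On the 7 young arrays the lowest was 0.09, the median 1.67 and the highest 2.49. The groups overlap, and young replicates 1 and 2, at 0.09 and 0.24, lie far below every other array. The mean ratio of the aged arrays was 2.48 ± 1.23 (SD, n = 6) and that of the young arrays 1.47 ± 0.96 (SD, n = 7). The log2 difference of 1.26 (SE 0.69, 95% interval -0.15 to 2.67), a 2.40-fold higher geometric mean in aged arteries, did not pass the test (adjusted p = 0.64 by limma, over 70 gene probes). Among increases it ranks 3, and by size in either direction 5 of 70, in a table where 57.1% of the tested probes were higher and 42.9% lower with age. That split depends on the scaling, since 29 of 70 were higher when arrays were centred on the reference genes and 13 of 70 when centred on the 15 probes that every array measured, which moved the median difference of all probes from 0.06 to -0.19 and -0.69. Gadd45a was higher in aged arteries under each of these, by 1.02 and 0.46. It is itself among those 15 probes, where an increase was usual. As deposited, all of them but Traf4 (-0.10) were higher in aged arteries, and Gadd45a ranks 2 among them. In bulk RNA a change in the share of cells that express a gene and a change in RNA per cell cannot be told apart.

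On the young arrays with the least Gadd45a, the other probes measured on every array were also low. The mean log2 ratio of the 14 other probes measured on every array was -2.43 and -1.73 on young replicates 1 and 2, from -1.22 to 0.03 on the other young arrays and from -0.74 to 0.05 on the aged arrays. The mean log2 ratio of the reference genes was also low there, at -1.27 and -1.35, but was lowest on young replicate 6, at -1.37. On the remaining arrays it was -1.05 or higher. That mean includes beta-actin, the denominator, which holds it nearer to no change. For Gapdh and Rpl13a alone the mean was -1.90, -2.03 and -2.05 on young replicates 1, 2 and 6. Not every probe was low on young replicates 1 and 2, since Chek1 on young replicate 1 was 0.16, near its highest. Gadd45a correlated with the level of the 14 probes over the 13 arrays (Pearson r = 0.86, permutation p = 0.00053, adjusted p = 0.0060 over 79 probes, and Spearman rho = 0.65, permutation p = 0.020, adjusted p = 0.11), as did 15 of the 79 probes (19%). Without young replicates 1 and 2, r was 0.44. Less that level, Gadd45a was 0.49 higher in aged arteries (exact permutation p = 0.41), and without young replicates 1 and 2 its deposited log2 difference was 0.20 (95% interval -0.79 to 1.19). With both changes together the sign turned, to -0.19 (exact permutation p = 0.58), while centring on the median of all gene probes left the difference at 1.28. The within-group spread of Gadd45a in young arteries, an SD of 1.88 on the log2 scale, was the widest among the 15 probes measured on every array.

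**Figure D2:**
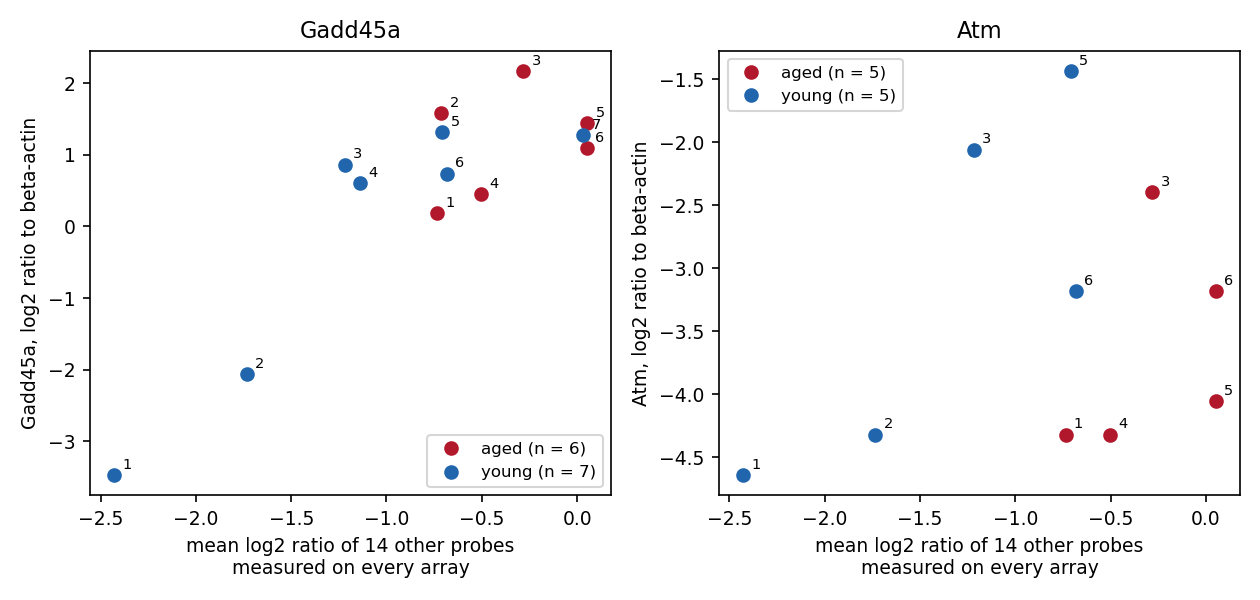
Log2 ratio of Gadd45a (left) and Atm (right) against the mean log2 ratio of the 14 other probes measured on every array, each point an array labelled with its replicate number. Young replicates 1 and 2 lie lowest on the horizontal axis in both panels, and Gadd45a is at its lowest there.

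Atm, the break-sensing kinase, had ratios of 0.05, 0.19, 0.05, 0.06 and 0.11 on aged replicates 1, 3, 4, 5 and 6. On young replicates 1, 2, 3, 5 and 6 they were 0.04, 0.05, 0.24, 0.37 and 0.11, and aged replicate 2 and young replicates 4 and 7 were blank. The groups overlap at the low end, and the highest values are young replicates 5 and 3. The mean ratio of the aged arrays was 0.092 ± 0.060 (SD, n = 5) and that of the young arrays 0.162 ± 0.141 (SD, n = 5), a log2 difference of -0.53 (SE 0.66, 95% interval -1.91 to 0.85, adjusted p = 0.89 by limma). The difference was below 0 under each of the 25 alternatives run and ranged from -1.63 to -0.02. Some of these left it at -0.53 because they did not change the Atm values used. They were the exact permutation test, the filter at the 25th percentile and a minimum of 2 values in each group. Leaving out an array where Atm was blank did the same. Less the mean of the 15 probes measured on every array, Atm differed by -1.63 (aged -4.20 to -2.28, young -2.60 to -0.86, exact permutation p = 0.024), and the same centring in limma gave an adjusted p of 0.18. On the arrays with an Atm value those 15 probes were themselves 1.11 higher in aged arteries.

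Chek1, the checkpoint kinase of the Atr branch, had ratios of 0.06, 0.17, 0.06 and 0.12 on aged replicates 1, 3, 4 and 5 and of 0.16, 0.09, 0.04 and 0.17 on young replicates 1, 2, 5 and 7. These ranges nearly coincide. The log2 difference was -0.10 (SE 0.67, 95% interval -1.51 to 1.30, adjusted p = 0.98 by limma), and it was 0.075 with arrays centred on the median of their gene probes.

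Chek2 and Rpa3 had too few values for the age test, which needs 3 in each group and which 72.9% of gene probes could enter. Chek2, the kinase downstream of Atm, was measured at 0.04 on aged replicate 1 and at 0.04 and 0.08 on young replicates 3 and 6. Rpa3, the small subunit of replication protein A, stood at 0.2 and 0.09 on aged replicates 4 and 6. On young replicates 1, 3, 5, 6 and 7 it was 0.04, 0.09, 0.08, 0.08 and 0.11. Rpa3 was thus measured on 5 of 7 young and 2 of 6 aged arrays (Fisher's exact p = 0.29).

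Mdm2, the ubiquitin ligase of p53, had ratios of 0.06, 0.2, 0.01, 0.13, 0.55 and 0.16 on aged replicates 1 to 6. On young replicates 3, 4, 6 and 7 it was 0.07, 0.08, 0.13 and 0.56. Each group holds 1 array above 0.5, aged replicate 5 and young replicate 7, and aged replicate 3 is at the smallest ratio of the table. The log2 difference was -0.43 (SE 0.86, 95% interval -2.21 to 1.35, adjusted p = 0.96 by limma), and it turned to 0.25 without aged replicate 3 and to 0.23 without young replicate 7. Mdm2 had a value on 6 of 6 aged and 4 of 7 young arrays (Fisher's exact p = 0.19).

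Cidea, of the family related to the DNA fragmentation factors, was measured on 5 of 6 aged arrays, at 0.02, 0.1, 0.14, 0.01 and 0.05 on replicates 1 to 5. It had 2 young values, 0.08 and 0.12 on replicates 4 and 7, both inside the aged range (Fisher's exact p = 0.10 for the number of arrays). Its relative Cideb stood at 0.13 and 0.2 on aged replicates 2 and 3 and at 0.06 and 0.07 on young replicates 4 and 7. Those 4 Cideb values do not overlap by age but are too few for the test. How often probes this sparse separate by age is not given here. For detection, 0 of the 8 members passed Fisher's exact test (adjusted p = 1 for each over 96 probes), 0 had an unadjusted p under 0.05, and of the 96 probes 0 passed (0%) and 2 had an unadjusted p under 0.05.

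In the age test 0 of the 4 members with enough values passed limma (Gadd45a, Atm, Chek1 and Mdm2), and 0 had an unadjusted p under 0.05 by limma or by the exact permutation test. Over all gene probes 1 of 70 passed limma (1.43%), 5.71% had an unadjusted limma p under 0.05, and 0 passed the exact test after adjustment (0%). The direction was mixed, with Gadd45a higher and Atm, Mdm2 and Chek1 lower in aged arteries, and the median log2 difference was -0.27 against 0.06 over the 70. Without young replicate 7 the count was 3 higher and 1 lower, with a median of 0.19. In that setting 38 of 61 gene probes were higher, with a median of 0.33. All 4 members overlapped between the groups, and 2.86% of the 70 probes did not.

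A list of other p53 targets and DNA damage genes held 10 genes of the array, of which 6 had enough values, and 0 of these passed limma or the exact test, adjusted or unadjusted. The 6 split into 4 higher and 2 lower in aged arteries, with a median log2 difference of 0.75, and 3 of the 6 were higher once arrays were centred on those 15 probes. The median over all 70 probes as deposited was 0.06. Without young replicate 2 the median was 0.19 for the list and 0.05 for all gene probes. With that centring it was 0.02 for the list and -0.69 for all gene probes. Dffa, the inhibitor of the caspase-activated nuclease, ran from 0.54 to 2.08 with a median of 1.29 on aged arrays and from 0.08 to 1.51 with a median of 0.54 on young arrays (log2 difference 1.22, by limma adjusted p = 0.64). Casp2, a caspase tied to p53 through the PIDDosome, ran from 0.3 to 0.76 with a median of 0.655 on aged arrays and from 0.12 to 0.86 with a median of 0.25 on young arrays (log2 difference 0.90, by limma adjusted p = 0.64). Both genes overlap between the groups. Traf4, an adaptor induced by p53, spanned 0.02 to 0.24 on aged and 0.03 to 0.18 on young arrays (log2 difference -0.10). Dffa, Casp2 and Traf4 are themselves among those 15 probes, so the level subtracted in that centring includes them. All of the 15 but Traf4 were higher in aged arteries as deposited. The list and all 70 probes may thus differ in detection, and their medians are not like for like. The remaining tested genes Casp6, Bid and Apaf1 differed by 0.86, 0.64 and -0.25 with 3 or 4 values a group. Cdkn1a, the p21 cell cycle inhibitor induced by p53, had 3 aged values of 0.02 to 0.07 and 1 young value of 0.04, and Fas, Tnfrsf10b and Dffb were also too sparse to test.

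**Figure D3:**
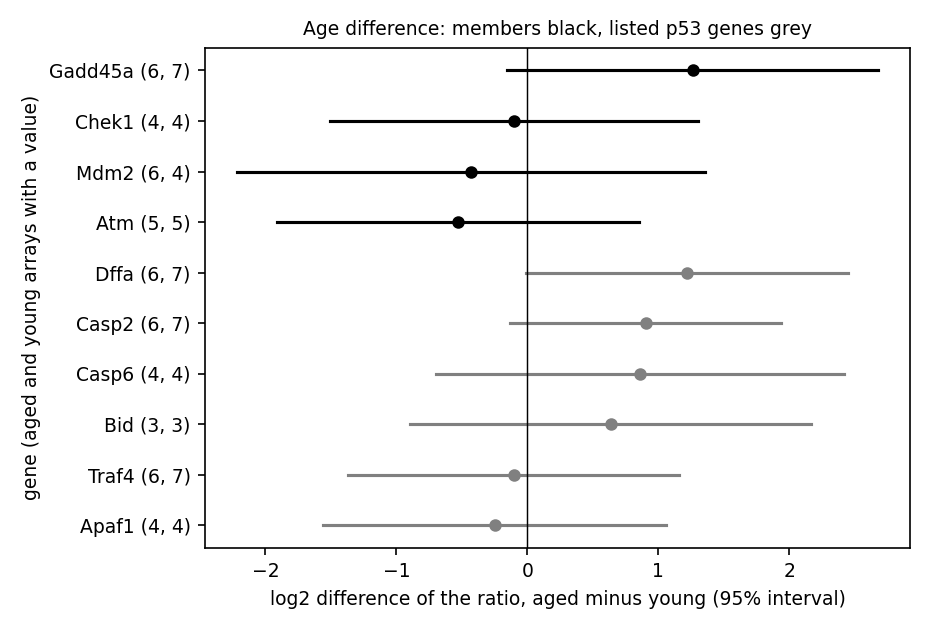
Log2 difference of the ratio to beta-actin, aged minus young, with its 95% interval from limma, for the 4 tested members (black) and the 6 tested genes of the p53 list (grey), with the number of aged and young arrays in brackets. Every interval includes 0, and Gadd45a (1.26) and Dffa (1.22) lie farthest to the right.

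A ratio of 2 members on the same array cancels the beta-actin signal, so it asks whether they moved unequally. Gadd45a over Atm was 22.8, 23.7, 27.4, 45.5 and 19.4 on aged replicates 1, 3, 4, 5 and 6. On young replicates 1, 2, 3, 5 and 6 it was 2.25, 4.8, 7.58, 6.73 and 15.2. Every aged array with both values lay above every young one, also at the limits of rounding, which allow no aged ratio under 18.5 and no young ratio over 16.0. The geometric mean was 26.5 in aged and 6.09 in young arteries, a log2 difference of 2.12 (exact permutation p = 0.0079, the smallest that 5 against 5 arrays can give).

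The exact permutation test did not pass when adjusted over all 1747 pairs of gene probes (adjusted p = 0.61). Of those pairs 5.44% had groups that do not overlap, 6.7% had an unadjusted p under 0.05 and 0 passed (0%), against 1, 1 and 0 of the 4 member pairs. Of the 2.12, Gadd45a gave 1.59 and Atm -0.53 on these 10 arrays, and without young replicates 1 and 2 the difference was 1.53 (exact permutation p = 0.018). The 3 arrays with Atm blank carry no ratio. If Atm were at 0.01 there, the ratio would be 300 on aged replicate 2 and 152 and 243 on young replicates 4 and 7, the groups would overlap, and the difference would be 1.28 (exact permutation p = 0.30). Atm was lower in aged arteries relative to each of the 15 probes measured on every array, with an exact permutation p under 0.05 for 9 of them and groups that do not overlap for 2, Gadd45a and Casp9. Of the 55 tested probes outside those 15, 32.7% were likewise lower relative to each of them, and 9.33% of their 825 ratios were lower with an unadjusted p under 0.05. Gadd45a over Mdm2, Gadd45a over Chek1 and Atm over Chek1 differed by 0.72, 1.90 and -0.46 on the log2 scale, with exact permutation p-values of 0.74, 0.31 and 0.83. Gadd45a over Chek1 rested on single arrays, at 0.76 without young replicate 1 (exact permutation p = 0.60) and 3.03 without young replicate 5 (exact permutation p = 0.029, adjusted p = 0.66).

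**Figure D4:**
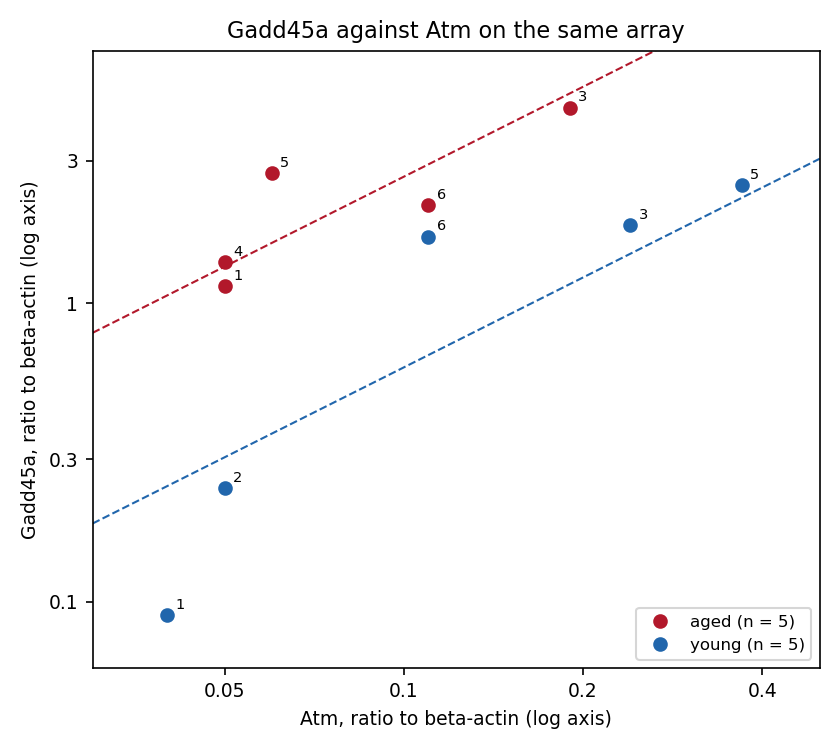
Ratio to beta-actin of Gadd45a against Atm on the same array (both axes log), labelled with the replicate number, for the 5 aged and 5 young arrays with both values. Dashed lines mark the geometric mean of Gadd45a over Atm in each group, 26.5 and 6.09, and every aged array lies above the young line.

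Gadd45a and Atm also varied together from array to array. Over the 10 arrays with both values the correlation of their log2 ratios was r = 0.63 (permutation p = 0.045) and rho = 0.77 (permutation p = 0.012), with an adjusted p for r of 0.38 over the 311 pairs of a member with a gene probe. With each value taken less the mean of its age group, r was 0.88 (permutation p = 0.00045, adjusted p = 0.032) and rho was 0.96 (permutation p = 6.0e-05). Leaving out the 2 arrays with the least Gadd45a, young replicates 1 and 2, gave r = 0.52 and 0.84. Each group alone has 5 such arrays, under the minimum of 6 set here for a correlation. A high r less the age means was not particular to this pair. Gadd45a then had r = 0.95 with Lta, 0.88 with Bcl2 and 0.86 with Tnfrsf1b, over 13 arrays. Atm had 0.73 with Bcl2 and 0.64 with Tnfrsf1b over 10 arrays. These are probes closest to each as deposited, and the other candidates are not given here in that setting. All ratios of an array share its beta-actin signal. With the level of the probes measured on every array taken out, r of Gadd45a with Atm was 0.29 (permutation p = 0.42). With the age means taken out as well it was 0.71 (permutation p = 0.025) and rho 0.58 (permutation p = 0.088).

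Of the 9 pairs of members with at least 6 shared arrays, 0 passed the adjustment as deposited and 2 had an unadjusted p under 0.05, while of the 311 pairs 0.965% passed and 12.9% had an unadjusted p under 0.05. The second was Gadd45a with Cidea (r = 0.76, permutation p = 0.047, rho = 0.79, permutation p = 0.048, n = 7, exact, and r = 0.64 over 5 arrays without aged replicates 1 and 3). Gadd45a with Mdm2 had r = -0.12 over 10 arrays and 0.77 without aged replicate 3, where Mdm2 was at 0.01 and Gadd45a at its highest. The sensor Atm and the p53 ligase Mdm2 had r = -0.52 over 7 arrays (exact permutation p = 0.24).

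By likeness over at least 10 shared arrays, the probes closest to Gadd45a were Bcl2 (r = 0.90), Lta (0.90) and Tnfrsf1b (0.86), over 13 arrays and against a median r of 0.41 for its 36 candidates. Without young replicates 1 and 2 these fell to 0.33, 0.59 and 0.43. Closest to Mdm2 were the TNF receptors Tnfrsf11a (r = 0.91), Tnfrsf25 (0.80) and Tnfrsf1b (0.52) over 10 arrays, of 17 candidates with a median of 0.24, and young replicates 1 and 2 have no Mdm2 value. Closest to Atm were Gadd45a (r = 0.63), Tnfrsf1b (0.54) and Bcl2 (0.42) over 10 arrays, of 20 candidates with a median of 0.24. Without young replicates 1 and 2 these were 0.52, 0.32 and -0.33. All of the probes named here as closest are among the 15 measured on every array, and each pair shares the beta-actin signal of its arrays.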

How the data were processed

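Expression was measured on 13 arrays. The deposited values are read here as linear ratios to beta-actin, from the values alone: the 2 beta-actin spots average 1 on every array. The labels name no scanner, background correction or normalization, so any such step by the authors is unknown. The array's 96 gene probes were named from the platform annotation, which lists 91 of 100 probes. By symbol 8 of 8 members matched RefSeq's rat table, and by gene identifier 0 of 8 did. The organism of the probe sequences is thus not settled, and any effect of it on ratios or blanks was not tested. Log2 ratios were fitted on age with limma 3.58.1 in R 4.3.3, blanks left missing, at least 3 values in each group, and p-values were adjusted (Benjamini-Hochberg) over the 70 probes tested at a threshold of 0.05. Tests between groups were two-sided exact permutation tests, and correlations had exact permutation p-values under 10 arrays and 100000 resamples from 10 up, in Python 3.11.15 with NumPy 2.4.6. Pair tests and correlations were adjusted over all 1747 or 311 pairs, not over member pairs as first planned. The fit was tested on simulated data. Array number limits the precision, and the signal depth is unknown. Members, lists and tests were chosen with earlier results of these data known. Genes named are the members, the listed p53 genes, the reference genes and the 3 probes most like each member with at least 10 values; Casp9 and Hus1 were named after their values were seen. Alternatives covered centring, quantile normalization, a pseudocount of 0.02, blanks at 0.01, filters, the replicate block and each array left out; leaving out young replicates 1 and 2 together and the test against probes measured on every array were chosen after seeing the data.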

Additional observations from a re-analysis of the deposited data

How the results depend on the processing

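With 6 and 7 arrays, 0 members passed under any of the 25 alternatives, which were limma fits and the exact permutation test. Gadd45a (from 0.20 up) and Atm kept their direction in each, though some alternatives could not change the estimate. Gadd45a turned to -0.19 where its level was taken less that of the probes of every array and young replicates 1 and 2 were left out, a combination chosen after seeing the data. Chek1 turned to 0.075 with median centring and 0.25 with blanks at 0.01, and ran from -0.54 to 0.15 with single arrays left out. Mdm2 turned to 1.21 with blanks at 0.01 and ran from -0.91 to 0.25 with single arrays left out, and Gadd45a over Mdm2 from -0.17 to 1.13. Same-numbered arrays deviated together with r from -0.20 to 0.36, which does not settle whether the numbers pair the arrays. The young array most like each aged one had the same number for replicates 2, 3 and 6 but not for 1, 4 and 5. With the replicate block Gadd45a differed by 1.49 over 6 pairs (limma adjusted p = 0.19). Atm differed by -0.66 over the 4 pairs with both values and Mdm2 by -0.60 over 3. Chek1 had too few pairs to run. In that setting 1 of 4 listed genes passed, Dffa (1.47, limma adjusted p = 0.039), beside 4 of 43 gene probes. With age means taken out, 1 of 9 member pairs passed, Gadd45a with Atm (r = 0.88). The share of all pairs of a member with a gene probe that passed in that setting is not given here, so the call has no background beside it. Correlations that changed sign were Atm with Rpa3 (-0.12 centred on reference genes, -0.060 on the probes of every array), Gadd45a with Rpa3 (-0.27 on those probes, -0.61 without young replicates 1 and 2) and Atm with Chek1 (0.13 on those probes), and Gadd45a with Chek1 (0.62 without young replicates 1 and 2). With single arrays left out, r ran from -0.27 to 0.77 for Gadd45a with Mdm2, -0.34 to 0.29 for Gadd45a with Chek1, -0.61 to 0.95 for Gadd45a with Rpa3, -0.68 to 0.48 for Atm with Chek1 and -0.29 to 0.48 for Mdm2 with Cidea. The cause of these changes was not tested.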

Other observations

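Hus1, a subunit of the checkpoint clamp loaded at damaged DNA, was on the array but on neither list, and it was singled out after its values were seen. It had 4 aged values of 0.01 to 0.06 and 2 young values of 0.07 and 0.08, too few for the age test.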
